A study of Mus musculus with 16 samples.

Results

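Levels of 10 immediate early genes were followed across 16 bulk RNA sequencing libraries of mouse inguinal white adipose tissue (iWAT), 10 genes of the 54532 in the table. They were Fos, Fosb, Jun, Junb and Atf3, whose proteins belong to the AP-1 and ATF family, Egr1, Egr2 and Egr3 of the EGR zinc finger family, the nuclear receptor gene Nr4a1, and Ier2. The genes were chosen by name from known families, after earlier results of the same libraries had shown early response genes among those higher in PH20_TG. The levels and the PH20 differences of these genes chose them in part and are therefore given as a description. All 10 passed the minimum of 50 mean reads in the PH20 study, and 9 passed it in the Has2 study, where Egr2 did not.

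The libraries fell into 4 groups of 4. Has2_TG mice carried Apn-rtTA and a TRE-Has2 transgene, and PH20_TG mice carried Apn-rtTA and TRE-PH20, which encodes the hyaluronidase PH20 of the Spam1 gene. Has2_WT and PH20_WT were the littermate controls of each line and, by the methods of the study, carried Apn-rtTA too. Apn-rtTA makes the doxycycline-activated transcription factor rtTA from the adiponectin promoter, so by design the transgenes were switched on in adipocytes. All mice were male, were 8 to 10 weeks old at the start, and ate chow with 200 mg/kg doxycycline for 5 days before the fat was taken. The labels number the libraries but do not state that each came from a separate mouse, so the p-values measure only the spread between these libraries.

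Immediate early genes are transcribed within minutes of a stimulus to a cell, from proteins that are already present, and their messages are short-lived. Serum response factor with its ETS partners (bound at CArG boxes) and CREB (bound at cyclic AMP response elements) switch many of them on downstream of MAP kinase, calcium and cyclic AMP signals. In adipose tissue they are known to respond to adrenergic stimulation, feeding, stress and cell isolation, in adipocytes as well as in stromal and immune cells.

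The members lie at single-gene loci spread over the genome of build GRCm38. In the coordinates of the table, Fos (ENSMUSG00000021250) spans chr12:85473890-85477273 on the plus strand, Fosb chr7:19302696-19310051 on the minus strand, Jun chr4:95049034-95052222 on the minus strand, Junb chr8:84974484-84978718 on the minus strand and Atf3 chr1:191170296-191218039 on the minus strand. Egr2 spans chr10:67535475-67542188, Egr3 chr14:70077203-70082614 and Nr4a1 chr15:101254269-101274795, all on the plus strand, and Ier2 spans chr8:84661331-84662852 on the minus strand. All 10 have the same start and end in GENCODE mouse release M21. Ier2 and Junb both lie on chromosome 8, with 311600 bases between them. Jun and Ier2 have 1 exon each, and the median span of the members was 5287 bases, against 23140 bases over the genes that reached 50 mean reads in 16 libraries. Jun overlaps the antisense gene Junos, Junb overlaps Prdx2 on the other strand, and Atf3 overlaps the small RNA gene Gm24748. Whether the counting used strand is not given in the sources used here, so reads of these pairs may not be told apart.

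Promoter windows of 300 bases, from 250 before to 50 after a RefSeq transcription start on GRCm38.p6, were found for 7 of the 10 members, Fos, Fosb, Jun, Junb, Atf3, Egr2 and Nr4a1. Those for Egr1, Egr3 and Ier2 were not used here. Sequences of 4 are shown because they hold the motifs by which these genes are known to be induced. Capitals mark the CArG box, the cyclic AMP element core TGACG, the EGR site (GCGGGGGCG or GCGTGGGCG) and the TATA box TATAAA, each searched on both strands.
Fos, chr12:85473640-85473939, plus strand: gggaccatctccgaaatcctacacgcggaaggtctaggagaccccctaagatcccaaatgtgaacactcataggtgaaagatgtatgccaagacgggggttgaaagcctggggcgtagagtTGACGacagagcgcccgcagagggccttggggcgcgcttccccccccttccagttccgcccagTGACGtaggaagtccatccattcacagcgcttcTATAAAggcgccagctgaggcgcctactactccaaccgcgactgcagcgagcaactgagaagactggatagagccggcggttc
Fosb, chr7:19309996-19310295, minus strand: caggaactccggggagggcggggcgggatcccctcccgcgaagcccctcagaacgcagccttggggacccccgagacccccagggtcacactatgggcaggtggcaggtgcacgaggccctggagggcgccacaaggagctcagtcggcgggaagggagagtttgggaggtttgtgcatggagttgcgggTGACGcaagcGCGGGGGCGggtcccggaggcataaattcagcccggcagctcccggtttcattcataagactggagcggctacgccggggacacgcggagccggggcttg
Egr2, chr10:67537619-67537918, plus strand: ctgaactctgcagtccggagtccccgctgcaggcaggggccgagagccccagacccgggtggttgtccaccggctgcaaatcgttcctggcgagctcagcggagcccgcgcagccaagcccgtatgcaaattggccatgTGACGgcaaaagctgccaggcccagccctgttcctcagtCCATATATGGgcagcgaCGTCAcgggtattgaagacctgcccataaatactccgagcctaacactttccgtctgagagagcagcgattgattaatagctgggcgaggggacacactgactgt
Nr4a1, chr15:101266596-101266895, plus strand: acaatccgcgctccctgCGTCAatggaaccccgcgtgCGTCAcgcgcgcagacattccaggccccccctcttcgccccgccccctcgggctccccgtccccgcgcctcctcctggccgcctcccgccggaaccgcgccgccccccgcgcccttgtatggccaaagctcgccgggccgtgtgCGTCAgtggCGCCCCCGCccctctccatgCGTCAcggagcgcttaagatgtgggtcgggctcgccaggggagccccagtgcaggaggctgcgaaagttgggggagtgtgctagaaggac
The CArG box was found in Egr2 windows and in no window of another member, against 1.63% of all 32851 promoter windows. Of the 5 Egr2 windows 4 held one, but 3 of these overlap and hold the same box, so that the distinct boxes numbered 2. At the Egr2 start shown, it began 72 bases before the start. The core TGACG was in the windows of Fos, Fosb, Junb, Atf3, Egr2 and Nr4a1 (20.8% of all windows). Nr4a1 held 4 of them. The EGR site was in Fosb and Nr4a1 (3.47% of all windows), and TATAAA was in Fos and Junb (13.6%). The full element TGACGTCA (1.79% of all windows) and the AP-1 site TGACTCA or TGAGTCA (5.20%) were in none of the 7. A match is a string of letters only, and an absent one says only that it is not in this window.

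Several libraries stood apart before any comparison was made. Reads on genes ranged from 14421692 to 26751729. Of the 16 libraries, 9 held few genes with very low counts (299 to 577 genes with 1 or 2 reads) and 7 held many (1906 to 2887 genes). The 9 were Has2_WT1, Has2_WT4, Has2_TG1, Has2_TG3, Has2_TG4, PH20_WT1, PH20_WT2, PH20_WT4 and PH20_TG1. Has2 FPKM (fragments per kilobase of gene, scaled to the reads of the library) was 1.86 to 3.24 in Has2_TG and 0.417 to 0.806 in Has2_WT. In the PH20 study it was 0.330 to 0.897 in PH20_WT, 0.380 in PH20_TG2 and 0.0990 in PH20_TG3, but 3.32 in PH20_TG1 and 3.26 in PH20_TG4. Spam1 had 6, 12 and 5 reads in PH20_TG2, PH20_TG3 and PH20_TG4 and 0 reads in PH20_TG1 and the 12 libraries of the other groups. PH20_TG1 is one of the libraries with few low counts, so its 0 does not check the label. The Has2 levels of PH20_TG1 and PH20_TG4 lay above the highest Has2_TG library, and those of PH20_TG2 and PH20_TG3 did not. The labels of PH20_TG1 and PH20_TG4 are therefore in doubt, although the 5 Spam1 reads of PH20_TG4 go with its label. Why Has2 mRNA was high in these libraries was not tested. The names PH20_TG1 and PH20_TG4 mean the libraries so labelled. The adipocyte markers Adipoq (751 to 1748 FPKM) and Fabp4 (1382 to 3765 FPKM) were high in every library, as the label iWAT asks, and none of the 8 adipocyte markers passed the test in either study. B cell markers summed to 315, 252, 322 and 119 FPKM in Has2_WT1, Has2_WT2, PH20_WT1 and PH20_WT3 and to 1.66 to 6.11 FPKM in the other 12 libraries.

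Members differed widely in level. Mean FPKM over the 16 libraries, a level per gene length, ran from 20.1 for Ier2 and 17.0 for Jun through 11.7 for Junb, 11.6 for Egr1, 8.90 for Nr4a1, 4.81 for Fos, 3.68 for Atf3, 1.36 for Egr3 and 1.30 for Egr2 to 0.590 for Fosb. The ranges over libraries of each pair of neighbours in this order overlapped. Jun varied least, with 3.07 times between its lowest (9.35 FPKM, Has2_WT3) and its highest library (28.7 FPKM, PH20_TG4). Egr1 varied 29.5-fold, from 1.81 FPKM in Has2_WT3 to 53.6 in PH20_TG4, and Atf3 38.2-fold, from 0.521 FPKM in Has2_TG3 to 19.9 in PH20_TG1. PH20_TG4 was the highest of the 16 libraries for 6 members and PH20_TG1 for 3, and Has2_WT1 was highest for Egr3.

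**Figure D1:**
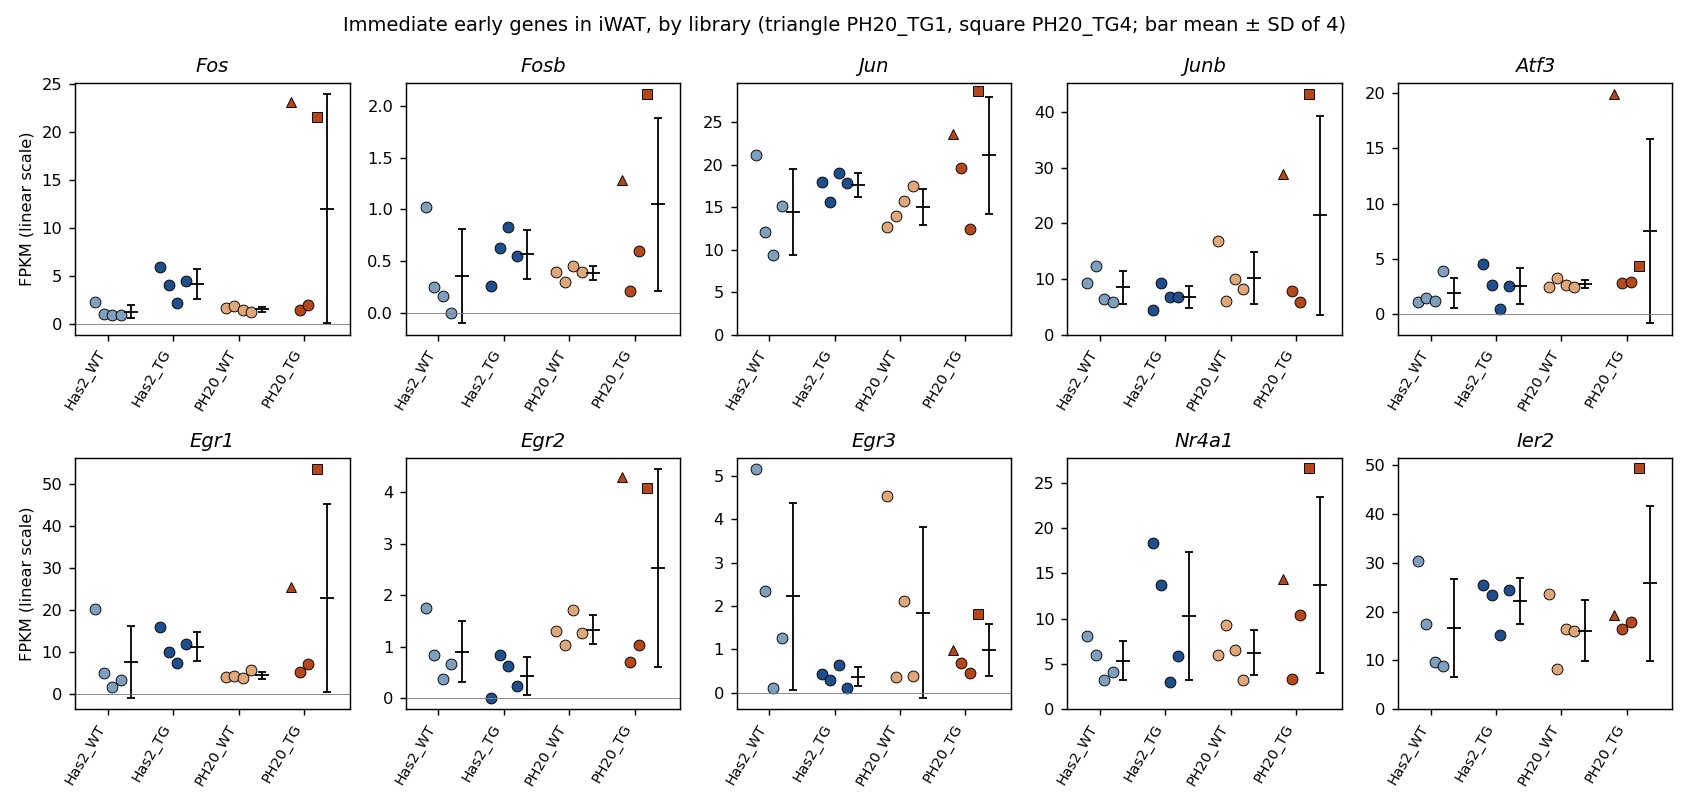
FPKM on a linear axis of each of the 10 genes in the 16 libraries, in 4 groups of 4, with the mean and SD of each group to the right of its points. PH20_TG1 (triangle) and PH20_TG4 (square) lie above the other 14 libraries for Fos, Fosb, Jun, Junb, Egr1 and Egr2, and PH20_TG2 and PH20_TG3 lie near the controls.

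In the PH20 study, the question was whether digestion of hyaluronan in fat alters gene expression. Fos, Fosb, Jun, Junb, Egr1 and Egr2 were highest in the libraries labelled PH20_TG1 and PH20_TG4, whose labels are in doubt. The other members shared this in part or not at all. PH20_TG3 also lay above every control for Fos, Fosb, Egr1 and Nr4a1, and PH20_TG2 for Jun. Every PH20 difference below that rests on PH20_TG1 and PH20_TG4 carries the doubt about their labels. Fos, the founding AP-1 partner of Jun proteins, was at 1.69, 1.92, 1.51 and 1.30 FPKM in PH20_WT replicates 1 to 4 and at 23.1, 1.50, 2.01 and 21.6 FPKM in PH20_TG replicates 1 to 4. PH20_TG1 and PH20_TG4 were thus 14.4 and 13.5 times the PH20_WT mean, whereas PH20_TG2 lay inside the control range and PH20_TG3 just above it. The group means were 12.1 ± 11.9 FPKM (SD, n = 4) in PH20_TG and 1.60 ± 0.265 in PH20_WT. The difference on the log2(FPKM + 0.1) scale was 1.93 (SE 0.88), and without PH20_TG1 and PH20_TG4 it was 0.12 (SE 0.26).

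Fosb, a close relative of Fos, was at 0.392, 0.295, 0.455 and 0.397 FPKM in PH20_WT and at 1.28, 0.209, 0.595 and 2.11 FPKM in PH20_TG. It rested on 26 to 188 reads per library in this study. Jun, the DNA-binding partner of Fos proteins, was at 12.7, 13.9, 15.8 and 17.5 FPKM in PH20_WT and at 23.6, 19.6, 12.5 and 28.7 FPKM in PH20_TG. In all, 3 PH20_TG libraries lay above every control and 1 lay below every control. Junb, a Jun relative that also restrains Jun activity, was at 16.8, 6.05, 9.96 and 8.14 FPKM in PH20_WT and at 28.8, 7.87, 5.89 and 43.3 FPKM in PH20_TG. Only PH20_TG1 and PH20_TG4 exceeded its highest control, and without them the log2 difference of Junb went from 0.70 (SE 0.64) to -0.48 (SE 0.38). Atf3, a stress-induced repressor, was at 2.47, 3.27, 2.64 and 2.51 FPKM in PH20_WT and at 19.9, 2.85, 2.92 and 4.33 FPKM in PH20_TG. For Atf3, PH20_TG1 stood apart, and PH20_TG4 was 1.59 times the PH20_WT mean.

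Egr1, the most widely induced EGR factor, was at 4.03, 4.32, 3.82 and 5.64 FPKM in PH20_WT and at 25.5, 5.31, 7.22 and 53.6 FPKM in PH20_TG. The group means were 22.9 ± 22.4 FPKM (SD, n = 4) and 4.45 ± 0.816 FPKM, and PH20_TG2 lay within the control range. The log2 difference of Egr1 was 1.76 (SE 0.65) and, without PH20_TG1 and PH20_TG4, 0.48 (SE 0.22). Egr2, best known from myelin and lymphocyte development, was at 1.30, 1.03, 1.72 and 1.27 FPKM in PH20_WT and at 4.29, 0.710, 1.02 and 4.09 FPKM in PH20_TG. Its 2 other transgenic libraries lay below every control, and the log2 difference changed from 0.52 (SE 0.56) to -0.56 (SE 0.31) without PH20_TG1 and PH20_TG4.

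Egr3, which antigen receptor signals induce in lymphocytes, did not follow this pattern. It was at 4.54, 0.361, 2.12 and 0.389 FPKM in PH20_WT and at 0.980, 0.696, 0.449 and 1.82 FPKM in PH20_TG. Among the controls, PH20_WT1 and PH20_WT3 were high, and all PH20_TG libraries lay between the lowest and the highest control. Nr4a1, an orphan nuclear receptor, was at 5.99, 9.29, 6.59 and 3.20 FPKM in PH20_WT and at 14.3, 3.38, 10.4 and 26.6 FPKM in PH20_TG, with 3 transgenic libraries above every control. Ier2, a small nuclear protein of growth-factor stimulated cells, was at 23.6, 8.27, 16.4 and 16.03 FPKM in PH20_WT and at 19.4, 16.4, 17.9 and 49.3 FPKM in PH20_TG. Only PH20_TG4 exceeded the highest control for Ier2.

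By the moderated test of limma, 1 of the 10 members, Egr1, was called higher in PH20_TG, with 0.05 as the threshold on the unadjusted p-value after the study, where 3.20% of the 12532 tested genes were called higher and 3.39% lower. The smallest adjusted p of a member was 0.703 (limma, Benjamini-Hochberg over all tested genes). Of the members, 9 had a positive log2 difference, with a median of 0.78 over the 10, against 0.01 over all tested genes. No member had groups that did not overlap, where 2.21% of the tested genes were higher in PH20_TG without overlap. The Egr1 call was absent without PH20_WT1 (log2 difference 1.72), PH20_WT3 (1.70) or PH20_TG1 (1.51), and 4 members were called without PH20_TG2 and 3 without PH20_TG3. Since these values helped to choose the genes, nothing is read from the counts.

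Cell type markers and the mitochondrial share of reads moved with PH20_TG1 and PH20_TG4. Mitochondrial genes took 11.6% and 12.96% of their reads, against 7.58% and 7.51% in PH20_TG2 and PH20_TG3 and 7.97% to 13.6% in PH20_WT. The 8 macrophage markers summed to 1774 and 694 FPKM in these libraries, against 215 and 345 FPKM in PH20_TG2 and PH20_TG3 and 528 to 937 FPKM in PH20_WT, and 0 of 8 passed the test. The 6 progenitor markers summed to 716 and 758 FPKM, against 142 and 181 FPKM and 223 to 748 FPKM, and 0 of 6 passed it. Adipocyte markers summed to 5061 and 5795 FPKM, against 9224 and 9239 FPKM, and to 3877 to 7664 FPKM in PH20_WT. PH20_WT1 had 748 FPKM of progenitor, 937 FPKM of macrophage and 3877 FPKM of adipocyte markers, and 1.69 FPKM of Fos. Skeletal muscle markers were lower in PH20_TG (11 of 12 tested called lower, with sums of 10.0 to 294 FPKM against 247 to 1031 FPKM in PH20_WT and Tnnc2 at 0), as were B cell markers (4 of 8) and T cell markers (4 of 8). Over all tested genes, 3.39% were called lower. The sums of PH20_TG1 and PH20_TG4 were 10.0 and 294 FPKM for muscle. With the muscle markers in the fit, the median log2 difference of the members was 1.33. In that fit 4 were called, Fos (3.27), Fosb (2.12), Egr1 (3.2) and Nr4a1 (2.52), and Atf3 stood at 0.59. Muscle markers differed between the groups, so this fit cannot tell their part from that of the group. A fit with the B cell markers is given with Egr3 below. The part of the other cell types and of the mitochondrial share in the differences of the members was not tested. In bulk RNA, more or fewer cells of a type and more or less RNA per cell cannot be told apart.

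The number of genes with low counts crossed the groups unevenly, since 3 of the 4 PH20_WT libraries and 1 of the 4 PH20_TG libraries had few. Between libraries with few, PH20_TG1 exceeded the 3 controls in Fos by 3.76 on the log2 scale and in Egr1 by 2.44. Between libraries with many, the log2 mean of the 3 transgenic libraries lay above the 1 control by 1.38 for Fos and 1.71 for Egr1. For Fos this rested on PH20_TG4 (21.6 FPKM), since PH20_TG2 (1.50 FPKM) and PH20_TG3 (2.01 FPKM) lay near the control PH20_WT3 (1.51 FPKM). Egr1 was at 5.31, 7.22 and 53.6 FPKM in PH20_TG2, PH20_TG3 and PH20_TG4 and at 3.82 FPKM in PH20_WT3. With this property as a covariate, the log2 difference was 2.57 (SE 0.97) for Fos and 2.08 (SE 0.77) for Egr1.

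**Figure D2:**
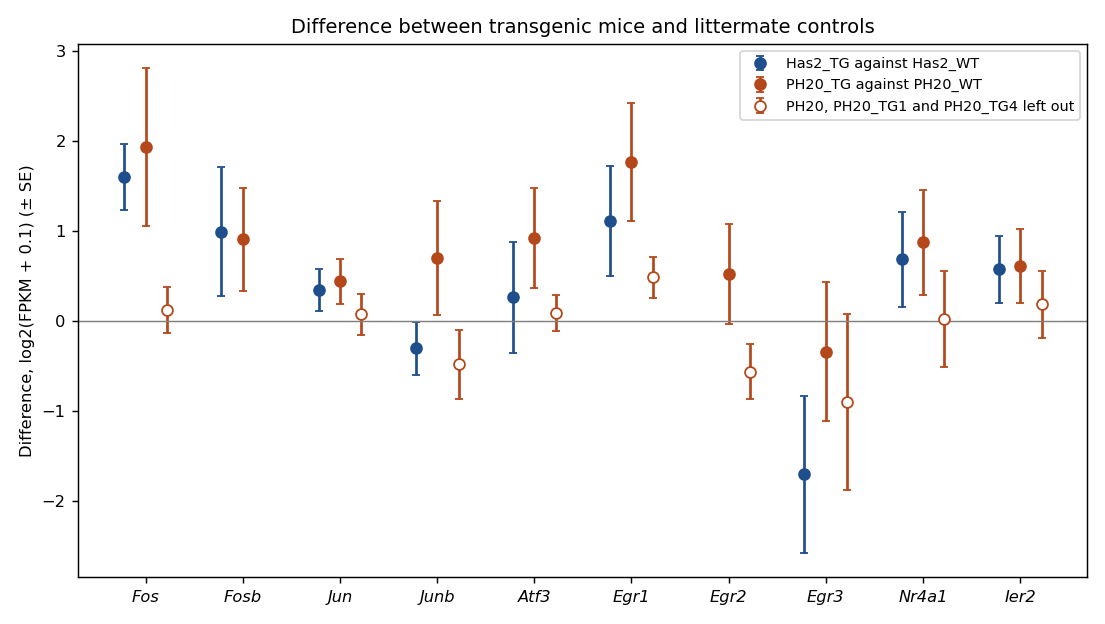
Log2 difference between transgenic and control libraries, on the log2(FPKM + 0.1) scale with its SE from limma, for each of the 10 genes in the Has2 study, in the PH20 study and in the PH20 study without PH20_TG1 and PH20_TG4. Fos stood at 1.59 in the Has2 study and at 1.93 in the PH20 study, and at 0.12 in the PH20 study without PH20_TG1 and PH20_TG4. A gene without a point had a mean under 50 reads in that fit.

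In the Has2 study, the question was how more hyaluronan from adipocytes alters the tissue. Of the 9 members tested, 7 had a positive log2 difference and 2 a negative one, and the largest positive one was that of Fos. Fos was at 2.34, 1.05, 1.03 and 0.957 FPKM in Has2_WT and at 5.94, 4.12, 2.25 and 4.54 FPKM in Has2_TG. Thus 3 of the 4 transgenic libraries lay above every control, and Has2_TG3 lay below Has2_WT1. The means were 4.21 ± 1.52 FPKM and 1.34 ± 0.666 FPKM (SD, n = 4). The log2 difference of Fos was 1.59 (SE 0.37, limma unadjusted p = 0.00162, adjusted p = 0.111), and it ranged from 1.41 to 1.88 with 1 library left out. Fos was thus past the threshold of the study and not past an adjusted one. It was the 1 member called higher of the 9 tested, where 6.25% of the 12606 tested genes were called higher and 3.75% lower. Without Has2_WT1, 4 members were called, and without Has2_WT3 or Has2_TG3, 2 were. None of the 9 had groups that did not overlap, against 4.08% of tested genes that were higher without overlap.

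The other AP-1 genes were less regular. Fosb was at 1.02, 0.248, 0.160 and 0 FPKM in Has2_WT and at 0.261, 0.627, 0.830 and 0.552 FPKM in Has2_TG. The 0 in Has2_WT4 stands for 0 reads, which allows up to 3 reads or 0.0252 FPKM by counting error alone, and Has2_WT4 is a library with few low counts. Jun was at 21.2, 12.1, 9.35 and 15.1 FPKM in Has2_WT and at 18.0, 15.7, 19.0 and 17.8 FPKM in Has2_TG, a log2 difference of 0.35 (SE 0.23). Junb was at 9.20, 12.4, 6.40 and 5.94 FPKM against 4.34, 9.27, 6.71 and 6.80 FPKM, a log2 difference of -0.31 (SE 0.29). Atf3 was at 1.11, 1.52, 1.18 and 3.91 FPKM against 4.51, 2.66, 0.521 and 2.53 FPKM, and its log2 difference of 0.26 (SE 0.62) was -0.11 without Has2_TG1.

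Among the EGR genes, Egr1 was at 20.2, 4.95, 1.81 and 3.42 FPKM in Has2_WT and at 15.9, 9.94, 7.53 and 12.0 FPKM in Has2_TG. Every transgenic library exceeded 3 controls and none exceeded Has2_WT1. The log2 difference was 1.11 (SE 0.61, limma adjusted p = 0.611) and became 1.77 without Has2_WT1, then past the unadjusted threshold. Egr2 was at 1.75, 0.827, 0.364 and 0.663 FPKM in Has2_WT and at 0, 0.833, 0.629 and 0.239 FPKM in Has2_TG, the 0 in Has2_TG1 again allowing up to 3 reads or 0.0350 FPKM. Nr4a1 was at 8.13, 6.05, 3.26 and 4.15 FPKM against 18.4, 13.7, 3.03 and 5.92 FPKM, high in Has2_TG1 and Has2_TG2 only. Skeletal muscle markers summed to 406 and 866 FPKM in Has2_TG1 and Has2_TG2, against 7.92 and 10.1 FPKM in Has2_TG3 and Has2_TG4 and 25.1 to 116 FPKM in Has2_WT. With the muscle markers in the fit Nr4a1 was still not called, and their part in its level in single libraries was not tested. Ier2 was at 30.4, 17.5, 9.68 and 8.81 FPKM against 25.5, 23.5, 15.3 and 24.5 FPKM, with Has2_WT1 above all transgenic libraries.

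Egr3 was at 5.17, 2.36, 0.1203 and 1.26 FPKM in Has2_WT and at 0.432, 0.301, 0.643 and 0.119 FPKM in Has2_TG. The log2 difference was -1.70 (SE 0.87, limma adjusted p = 0.577), and without Has2_WT3 it was -2.59, past the unadjusted threshold. Over both studies, the 4 libraries with the highest Egr3 (5.17, 4.54, 2.36 and 2.12 FPKM) were the 4 whose B cell markers summed to over 100 FPKM, and the other 12 held at most 1.82 FPKM of Egr3. When the mean B cell marker level entered the fit, the log2 difference of Egr3 was -0.44 (SE 0.77) in the Has2 study and 1.28 (SE 0.47) in the PH20 study, where it had been -0.34 (SE 0.77). In that PH20 fit Egr3 was the 1 member called, as higher in PH20_TG, and Egr1 was not called (1.60). Dusp2, a phosphatase of activated lymphocytes, was likewise at 12.0, 12.8, 18.8 and 7.01 FPKM in Has2_WT1, Has2_WT2, PH20_WT1 and PH20_WT3 and at most 2.07 FPKM in the other 12. In the same fits, the Has2 differences of Egr1 and Ier2 were 2.04 (SE 0.52) and 1.20 (SE 0.27), both past the unadjusted threshold. All 4 libraries rich in B cell markers were controls. The fits with these markers, here and below, therefore cannot tell their part from that of the group.

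Other markers moved in the Has2 study too, where 6.25% of all tested genes were called higher and 3.75% lower. All 6 progenitor markers were called higher in Has2_TG (sums of 515 to 738 FPKM against 160 to 344 FPKM), as were 5 of 8 macrophage markers (564 to 740 FPKM against 262 to 537 FPKM) and 3 of 5 red blood cell markers (375 to 1255 FPKM against 319 to 496 FPKM), while 3 of 8 B cell markers and 2 of 8 T cell markers were called lower. No marker of these lists was at 0 in all 8 libraries. Apart from the fits with the B cell markers above, their part in the differences of the members was not tested. Of the remaining marker lists, 1 endothelial and 1 Schwann cell gene were called higher and 1 smooth muscle gene lower in Has2_TG, and 1 red blood cell gene was called higher and 1 smooth muscle gene lower in PH20_TG. No adipocyte gene was called of the 8 tested in each study. Only 1 neutrophil gene reached the minimum of reads in each study, and 1 keratinocyte gene in the Has2 study and 0 in the PH20 study. The lack of calls in those lists therefore says little. The neutrophil marker Ly6g was at 0, and the keratinocyte gene Krt5, which was not tested, was at 5.33 FPKM in Has2_TG4. Between the libraries with few low counts, 3 transgenic and 2 control, Fos differed by 1.33 on the log2 scale. Between the others, 1 transgenic and 2 control, it differed by 1.89.

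The PH20 and Has2 effects were compared in 1 fit of all 16 libraries. None of the 10 members was called in either direction at an unadjusted p-value under 0.05, where 7.70% of the 12593 tested genes were. The nearest was Egr2, whose effect was higher in the PH20 study by 1.70 (SE 0.97) on the log2 scale (limma adjusted p = 0.705). The Fos effects differed by 0.33 (SE 1.02), an error too wide to call them alike. A difference between the control groups was not detected for the members. Of the 10, 0 were called between PH20_WT and Has2_WT by limma, where 10.3% of the tested genes were, and the smallest unadjusted p was 0.315 (limma). Their log2 differences between controls ran from -0.19 to 0.67.

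Members varied together from library to library. After the mean of each group was removed from log2(FPKM + 0.1), 41 of the 45 pairs of members had a positive Pearson r over the 16 libraries, with a median of 0.51, against 0.00 over all pairs of 12590 tested genes. These values share the libraries, their scaling and their makeup of cells, and they are given as a description. The closest pairs were Fos with Egr1 (r = 0.83), Jun with Egr1 (r = 0.80) and Egr1 with Ier2 (r = 0.76). Atf3 was the least tied to the rest, with r = 0.20 to the mean of the other 9 and r = -0.19 to Fosb. Without PH20_TG1 and PH20_TG4 the median fell to 0.34. Fos with Egr1 then stood at r = 0.76 and Egr1 with Ier2 at r = 0.73, whereas Fos with Junb went from 0.74 to -0.08 and Fosb with Atf3 from -0.19 to -0.65. The high Junb that went with high Fos was seen in PH20_TG1 and PH20_TG4.

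**Figure D3:**
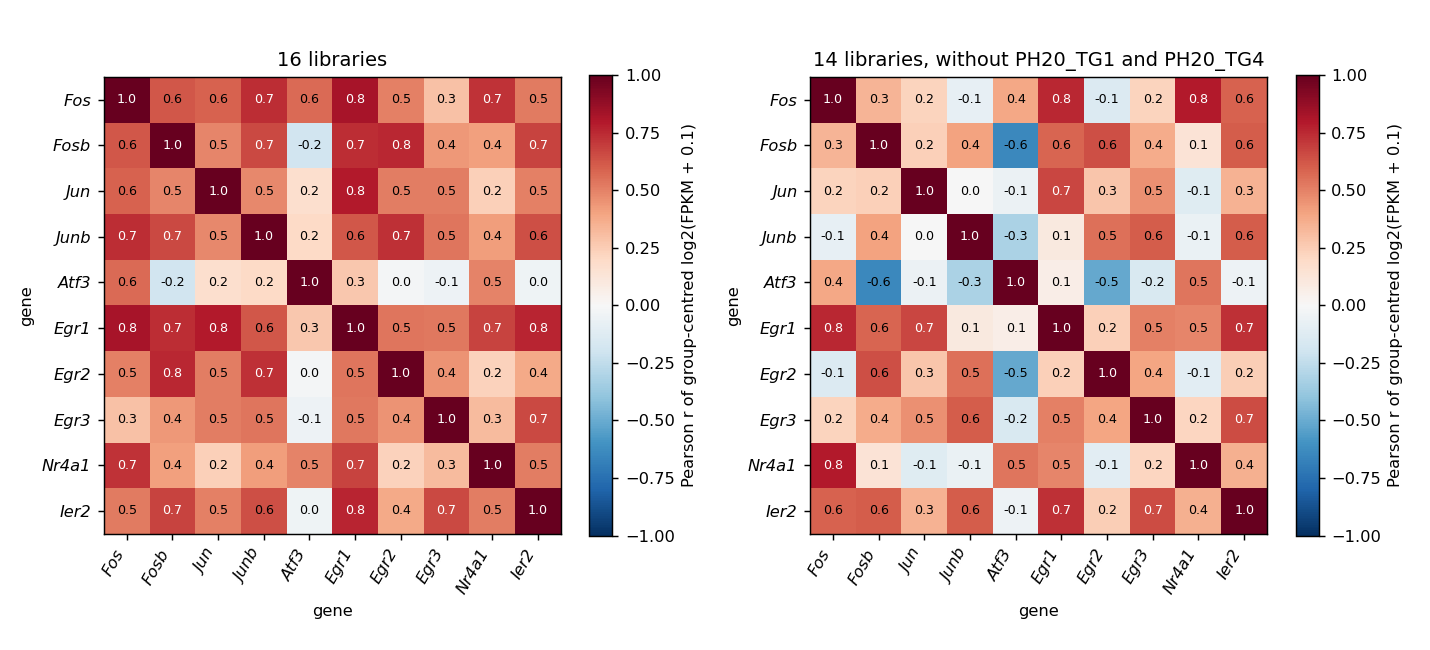
Pearson r between each pair of the 10 genes, from log2(FPKM + 0.1) with group means removed, over 16 libraries (left) and over the 14 libraries other than PH20_TG1 and PH20_TG4 (right). Red marks positive and blue negative r, and the median of the 45 pairs was 0.51 on the left and 0.34 on the right.

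The gene most unlike the members was Aacs, acetoacetyl-CoA synthetase, which activates ketone bodies for lipid synthesis. Among 12590 tested genes, its r with the mean of the 10 centred members was the lowest, at -0.99 over 16 libraries, -0.98 without PH20_TG1 and PH20_TG4, -0.99 over the 8 libraries of the Has2 study and -0.99 over those of the PH20 study. Aacs was picked by its r over these 16 libraries, so the values over fewer of them are not independent of the choice and do not repeat it. Its FPKM was 51.2 in PH20_TG1 and 50.5 in PH20_TG4, against 155 and 146 in PH20_TG2 and PH20_TG3. In Has2_WT it was 75.8, 115, 176 and 139 FPKM, lowest in Has2_WT1, which held the most Egr1 and Ier2 of its group. Adipocyte markers summed to 4386, 7241, 8327 and 7484 FPKM in the same libraries, and their part in these r was not tested. The next most opposed genes were Phlda3 (r = -0.91), Cspg4 (r = -0.91), Usp46 (r = -0.91) and G6pc3 (r = -0.90). At the other end stood Hpse, the heparan sulfate cleaving enzyme heparanase, with r = 0.93. It was followed by Slc25a12 (r = 0.90), Prr33 (r = 0.90), Itgb3 (r = 0.90), Ms4a6c (r = 0.89), Fam167a (r = 0.89), the kinase gene Syk (r = 0.89), the cathepsin gene Ctsh (r = 0.89), the lysozyme gene Lyz1 (r = 0.88) and F730311O21Rik (r = 0.88). None of these 15 genes was in a list of early genes used here. Ms4a6c was at 6.89 FPKM in PH20_TG1 but 2.60 FPKM in PH20_TG4, and its r was 0.97 without both.

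**Figure D4:**
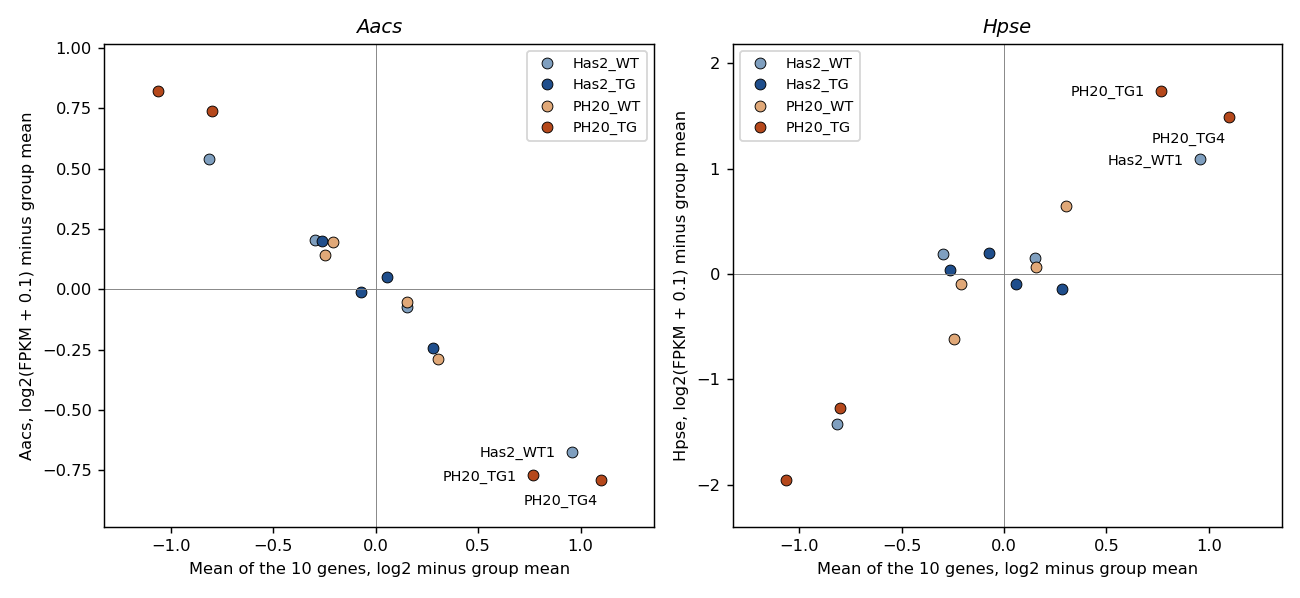
Group-centred log2(FPKM + 0.1) of Aacs (left) and Hpse (right) against the mean of the 10 centred members, 1 point per library, coloured by group. Aacs fell and Hpse rose along the axis (r = -0.99 and r = 0.93, n = 16), with PH20_TG1, PH20_TG4 and Has2_WT1 at the right end. Both genes were picked by these r.

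Relatives of the members were listed as well. Of 14 further AP-1, MAF, EGR and NR4A genes and EGR corepressors tested in the PH20 study, 4 were called higher and 0 lower, with a median log2 difference of 0.28. Over all tested genes, 3.20% were called higher and 3.39% lower there. Of 12 tested in the Has2 study, 3 were called higher and 1 lower, with a median of 0.23, where 6.25% of all tested genes were called higher and 3.75% lower. The lists were chosen with earlier results known, so nothing is read from these counts. Jdp2, an AP-1 family repressor, rose in both studies with no overlap between groups. It was at 5.67, 5.24, 5.76 and 6.06 FPKM in PH20_WT and at 14.2, 7.65, 7.14 and 12.3 FPKM in PH20_TG (log2 difference 0.79, SE 0.23, limma adjusted p = 0.664). In the Has2 study it was at 4.76 ± 0.871 FPKM in Has2_WT and 8.28 ± 0.870 FPKM in Has2_TG (SD, n = 4, log2 difference 0.80, SE 0.18, limma adjusted p = 0.108). Without PH20_TG1 and PH20_TG4, the log2 difference of Jdp2 was 0.38 (SE 0.15) and still past the unadjusted threshold. Fosl2, another Fos relative, was called higher in both studies (log2 differences of 0.45 and 0.49), but in the PH20 study it was 0.18 (SE 0.17) without PH20_TG1 and PH20_TG4. Fosl1 (0.82, SE 0.29) and Mafg (0.31, SE 0.11) were called higher in PH20_TG. In Has2_TG the EGR corepressor genes went opposite ways, Nab2 up by 0.92 (SE 0.37) and Nab1 with a log2 difference of -0.41 (SE 0.15). With the B cell markers in the fit, the calls of Fosl2 in both studies, Mafg in PH20_TG and Nab2 in Has2_TG were lost, and Fosl1 lost its call with the muscle markers (0.52) in the fit.

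Of 40 other early response genes tested in the PH20 study, 6 were called higher and 1 lower (median log2 difference 0.19), and of 39 in the Has2 study 7 were called higher and 2 lower (median 0.08). The shares over all tested genes were 3.20% higher and 3.39% lower in the PH20 study and 6.25% and 3.75% in the Has2 study. Areg was at 0 in all libraries. Cyr61 and Dusp1 were already known to be higher in PH20_TG when the list was written. Dusp1, a phosphatase that shuts off MAP kinases, was at 12.5, 10.1, 10.4 and 7.54 FPKM in PH20_WT and at 51.6, 17.4, 17.2 and 52.8 FPKM in PH20_TG. Unlike Fos, it was above every control in all 4 transgenic libraries, and its log2 difference of 1.58 (SE 0.41) was 0.79 (SE 0.21) without PH20_TG1 and PH20_TG4. Cyr61, a matricellular gene, was at 3.18, 6.36, 4.52 and 3.34 FPKM in PH20_WT and at 38.8, 8.79, 13.2 and 43.6 FPKM in PH20_TG (log2 difference 2.30, SE 0.51, and 1.34, SE 0.32, without PH20_TG1 and PH20_TG4). Ier5l (0.81, SE 0.21), Plk3 (1.26, SE 0.36), Gadd45g (1.11, SE 0.33) and Sik1 (0.74, SE 0.29) were the others called higher. Sik1 was 0.25 (SE 0.25) without PH20_TG1 and PH20_TG4. Gadd45b fell to 5.46 ± 3.10 FPKM from 14.8 ± 7.39 (SD, n = 4). It was highest in PH20_WT1 (25.2 FPKM) and PH20_WT3 (15.0 FPKM), which were rich in B cell markers, and its call was lost with the B cell markers (-0.83, SE 0.45) or the muscle markers (-0.97, SE 0.70) in the fit. Plk3 and Sik1 lost their calls with the muscle markers in the fit.

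In Has2_TG, Klf4, a zinc finger factor, and Errfi1, a feedback inhibitor of the EGF receptor, were the early genes past the adjusted threshold. Of the 12606 tested genes, 13 were higher and 0 lower past it. Klf4 rose to 22.9, 27.1, 35.2 and 30.7 FPKM from 10.5, 9.05, 11.2 and 12.7 FPKM (log2 difference 1.40, SE 0.17, limma adjusted p = 0.0384). Errfi1 rose to 19.9, 33.1, 31.4 and 32.7 FPKM from 10.9, 11.4, 7.81 and 6.58 FPKM (log2 difference 1.67, SE 0.23, limma adjusted p = 0.0384). Both groups were fully apart for these 2 genes. The controls were apart too, with PH20_WT above Has2_WT by 1.20 (SE 0.45) for Klf4, called at the unadjusted threshold, and by 0.61 (SE 0.47) for Errfi1, not called. For both genes PH20_WT overlapped Has2_TG, for Errfi1 through PH20_WT1 (21.1 FPKM) and Has2_TG1 (19.9 FPKM). Dusp1 (0.88, SE 0.19), Cebpd (0.96, SE 0.21), Lif (1.44, SE 0.36), Gadd45g (0.88, SE 0.31) and Gem (0.75, SE 0.33) were called higher at the unadjusted threshold, and Dusp2 (-3.16, SE 1.12) and Gadd45b (-1.23, SE 0.52) lower. With the B cell markers in the fit, both lower calls ended (Dusp2 -1.06, SE 0.60, and Gadd45b -0.44, SE 0.45). Has2_WT1 and Has2_WT2, rich in B cell markers, also held the most Gadd45b of the Has2 study (11.1 and 8.81 FPKM). Gem lost its call with the low-read kind of library (0.60) in the fit. In the PH20 study, Klf4 was at 52.4 and 53.1 FPKM in PH20_TG1 and PH20_TG4 and at 11.01 and 10.48 FPKM in PH20_TG2 and PH20_TG3, with 19.3 to 33.7 FPKM in PH20_WT. Errfi1 was at 58.1 and 46.6 FPKM against 10.3 and 10.7 FPKM, with 11.5 to 21.1 FPKM in PH20_WT. Neither was called there, and Klf4 had a log2 difference of -1.20 (SE 0.23) without PH20_TG1 and PH20_TG4.

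**Figure D5:**
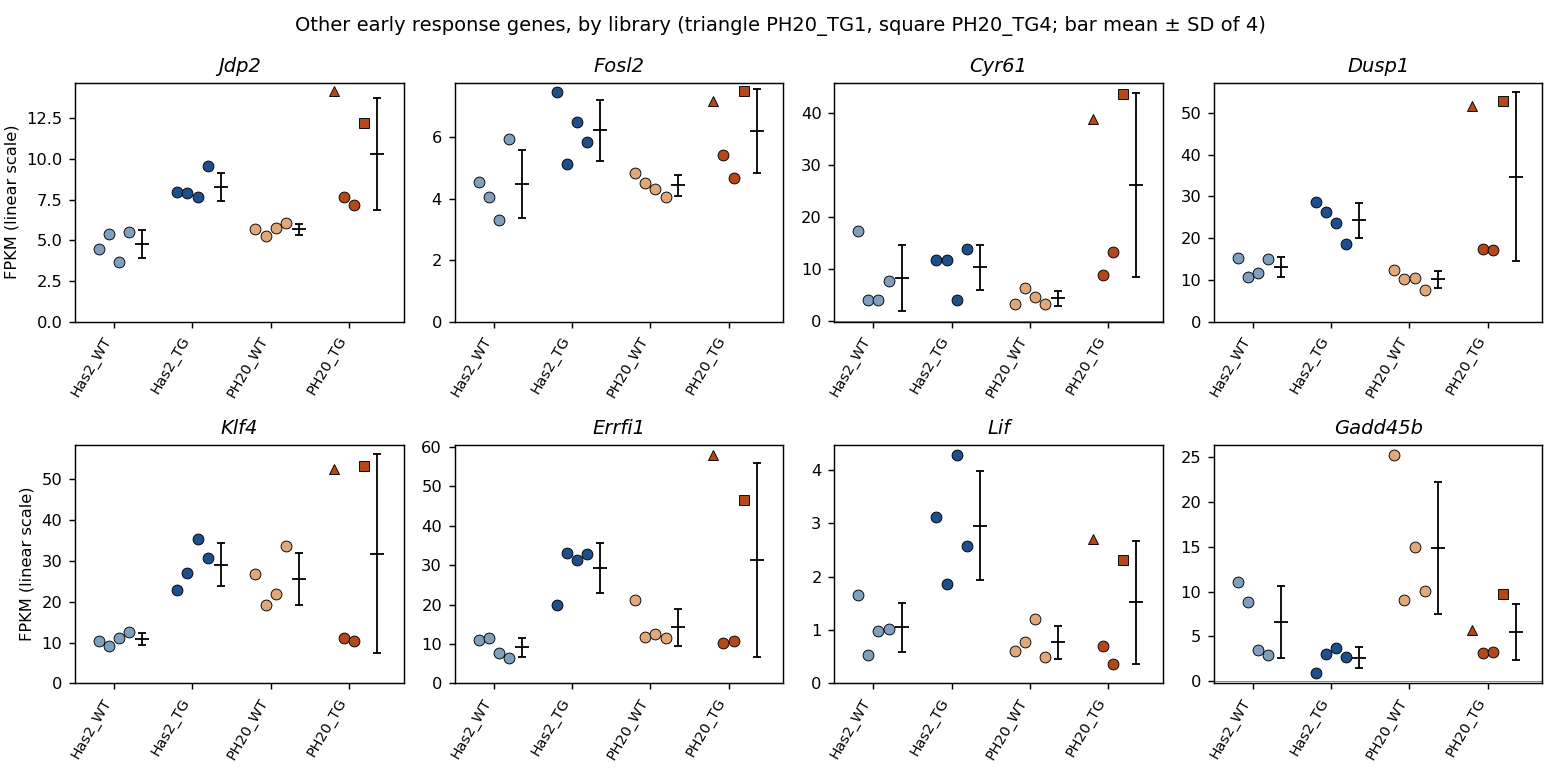
FPKM on a linear axis of 8 further early response genes in the 16 libraries, with the mean and SD of each group. Dusp1 and Jdp2 lie above the controls in every transgenic library of both studies, whereas Klf4, Errfi1 and Lif were high in PH20_TG1 and PH20_TG4 and low in PH20_TG2 and PH20_TG3.

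Genes that carry signals to the members were tested in the same way. Over all tested genes, 3.20% were called higher and 3.39% lower in PH20_TG, and 6.25% and 3.75% in Has2_TG. Single calls in lists of this size are not read as a result. Of 23 upstream kinases and factors, including Srf, Elk1, Creb1 and the MAP kinases, 0 were called higher and 1 lower in PH20_TG (Mef2c, log2 difference -0.65, SE 0.24), and 1 was called higher and 0 lower in Has2_TG (Mapk3, 0.32, SE 0.14). Among heat shock genes, 1 of 10 was called higher in PH20_TG (Dnaja1, 0.42, SE 0.13) and 1 of 9 in Has2_TG (Bag3, 0.38, SE 0.14). Among hypoxia genes, 0 of 9 were called in PH20_TG by limma (smallest unadjusted p 0.0985, Vegfa), and 2 of 9 were called lower in Has2_TG, Pdk1 (-0.87, SE 0.27) and Slc2a1 (-0.91, SE 0.32). With the B cell markers in the fit, the calls of Mapk3 (0.19), Mef2c (-0.43), Bag3 (0.24) and Slc2a1 (-0.52) were lost. Mapk3 and Mef2c also lost theirs with the muscle markers, as did Dnaja1 (0.48), and Mapk3 with the replicate number as a block. Mef2c and Dnaja1 lost theirs with the low-read kind of library in the fit as well. In the PH20 fit without PH20_TG1 and PH20_TG4, 2 of 9 hypoxia genes were called higher. More genes were called in that fit, with 702 higher and 1033 lower over all tested genes against 401 and 425 in the main fit. The 2 calls are not read as a result either. The summed FPKM of the heat shock genes was 517 and 522 in PH20_TG1 and PH20_TG4 and 552 and 586 in PH20_TG2 and PH20_TG3, with 525 to 650 in PH20_WT.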

How the data were processed

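Total RNA of iWAT was sequenced in 16 libraries (TruSeq RNA kit). According to the methods of the study and the submitters' processing notes, the authors aligned reads to GRCm38 with STAR (2.7.9a), counted reads per gene with STAR, normalized the counts, and tested genes of 50 or more reads on average by DESeq2 at a p-value threshold of 0.05. The file that the authors deposited holds FPKM per gene and library. Each value times gene length and library total gave whole reads in 100% of cases (tolerance 0.05), and the library totals carried a median-of-ratios scaling. DESeq2 was not used here. Gene annotation M21 served for exons and overlaps.

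Differences were tested with limma (3.58.1, R 4.3.3) on log2(FPKM + 0.1), two-sided with a variance trend, within each study of 8 libraries and, for the comparison of studies, over 16. A gene was called at an unadjusted p-value under 0.05, and p-values were adjusted over all tested genes. Intervals and floors cover counting error only. The fit was tested on simulated data.

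The 10 members and all lists were chosen with earlier results of these data known. Named genes were the members, the 3 smallest p-values per list and study, the 2 most abundant markers per list, and the 10 most and 5 least alike genes; any further called gene is named too. Other settings were 1 as the pseudocount, all genes with a read, median-of-ratios scaling, quantile normalization, voom, all 16 libraries, the replicate number as a block, muscle or B cell score as a covariate, and each library left out. Added after seeing the data were leaving out PH20_TG1 and PH20_TG4, scaling to the reads on genes, and the kind of library by low-read genes as a covariate.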

Additional observations from a re-analysis of the deposited data

Results flagged for a closer look

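In 5 of the 40 combinations of a member and a group of 4 libraries, 1 library lay far from the other 3, by Dixon's criterion on the gap to the nearest library over the range of the group. For independent values from a normal distribution, chance flags about 1 in 20 groups. FPKM was taken here on a linear scale and the members varied together, so the 5 of 40 cannot be read against that share. Fos was at 2.34 FPKM in Has2_WT1, with the next library at 1.05, and Egr1 at 20.2 FPKM in Has2_WT1, with the next at 4.95. Atf3 was at 3.91 FPKM in Has2_WT4, with the next at 1.52, and at 19.9 FPKM in PH20_TG1, with the next at 4.33. Ier2 was at 49.3 FPKM in PH20_TG4, with the next at 19.4. For Fos, Junb and Egr2 both PH20_TG1 and PH20_TG4 were high, a pattern that this criterion cannot mark.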

How the results depend on the processing

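Of the log2 differences of single members under the alternatives, 332 kept their sign and their side of the unadjusted threshold, 25 came past it, 5 fell short of it and 7 changed sign. The sign changed without PH20_TG1 and PH20_TG4 for Junb (-0.48) and Egr2 (-0.56) in the PH20 study. With the B cell markers in the fit it changed for Egr3 in the PH20 study (1.28) and for Junb (0.073) and Atf3 (-0.14) in the Has2 study. Leaving out 1 library changed it for Egr3 in the PH20 study without PH20_WT1 (range -0.81 to 0.30) and for Atf3 in the Has2 study without Has2_TG1 (range -0.11 to 0.86). Against 1 member called in the PH20 study, 3 were called after quantile normalization, 2 with all 16 libraries, 4 with the muscle score, 3 with the low-read kind of library as a covariate and 0 without PH20_TG1 and PH20_TG4. Against 1 in the Has2 study, 2 were called with a pseudocount of 1 and 4 with the B cell score. With 1 library left out, calls ranged from 0 to 4 (PH20), 1 to 4 (Has2), 0 to 1 (difference between studies) and stayed at 0 (controls). Egr1 lost its PH20 call without PH20_WT1, PH20_WT3 or PH20_TG1, and with the B cell score. The 4 calls came without PH20_TG2 and without Has2_WT1. The 5 gene lists outside the members held 13 calls in the PH20 study, 8 with the muscle score and 23 without PH20_TG1 and PH20_TG4, and with 1 library left out 10 to 16. In the Has2 study they held 17, and 12 to 19. Calls over all tested genes moved too. In the PH20 study, 401 genes were called higher and 425 lower in the main fit. With the muscle score these were 193 and 110, and without PH20_TG1 and PH20_TG4 they were 702 and 1033. The counts of the lists are therefore not read as a result. With the replicate number as a block, 2 members were called in the PH20 study and 3 in the Has2 study. The numbers were not shown to pair the libraries, since the deviations of same-numbered libraries correlated at 0.34, 0.42, -0.03 and -0.04 in the PH20 study and at -0.00, 0.13, -0.18 and 0.02 in the Has2 study. The causes of these changes were not tested. The median-of-ratios scaling gave the values reported, since the deposited values already carry it. With 4 libraries per group of which 2 stood apart, the SE of Fos in the PH20 study was 0.88, and depth limits Fos, Fosb, Atf3, Egr2 and Egr3, which had under 50 reads in some libraries.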
